A study of Danio rerio with 4 samples.

Results

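Coagulation and fibrinolysis genes of the endothelium were followed in cardiac endothelial cells sorted from regenerating zebrafish ventricles. The set comprised 9 genes of 32520 in the count tables. They were chosen by name for their place in the haemostatic pathway, with earlier results of these data known: *vwf*, *f3a*, *f3b*, *f5*, *f8*, *thbd*, *tfpia*, *plat* and *plaua*. Of these, 7 were matched to an Ensembl gene by their exact symbol and *plat* through a symbol carried by a single gene. *tfpia* was matched through the study's own gene table. The paper cites that table for genes that differ between its groups, so the match of *tfpia* was not independent of its values.

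The study compared CtrlK and DNK fish at 7 days post-amputation (7 dpa), with 2 libraries each, to ask what inhibition of the chromatin remodeller Brg1 in the endothelium does to gene expression during heart regeneration. CtrlK fish were transgenic for ubi:loxp-DsRed-STOP-loxp placed ahead of DN-xBrg1, a dominant-negative Xenopus Brg1, and for the kdrl-eGFP reporter. DNK fish carried the same transgenes and, in addition, kdrl:CreER. Adult fish of both groups received 4-hydroxytamoxifen (4-HT), given in the labels as 3 days, before the ventricle was amputated, and atrium and bulbus were removed before eGFP+ cells were sorted from pooled hearts. Both groups thus carried the silent DN-xBrg1 cassette and the eGFP reporter, and only DNK fish carried the CreER recombinase, which the endothelial *kdrl* promoter drives. An effect of CreER itself and an effect of the released DN-xBrg1 cannot be told apart in this design. In bulk RNA from sorted cells, fewer cells of a type and less RNA per cell also cannot be told apart.

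Endothelial cells stand between blood and tissue and control both ends of clotting. Tissue factor, encoded by the f3 genes, binds factor VII to start the cascade, factors VIII and V serve as cofactors for the factor X-activating and thrombin-generating complexes, and von Willebrand factor (VWF) carries factor VIII in plasma and tethers platelets, or thrombocytes in fish. Tissue factor pathway inhibitor blocks the starting step, thrombomodulin turns thrombin toward the anticoagulant protein C pathway, and the plasminogen activators tPA (*plat*) and uPA (*plaua*) start the breakdown of fibrin.

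The libraries held 25189862 to 28770727 counts, so that the floor of 3 counts lay between 0.104 and 0.119 CPM, that is, relative to the total of each library. Endothelial markers summed to 4393 and 4849 CPM in CtrlK and 4151 and 4192 CPM in DNK, and all 9 matched markers of 10 were detected. The sums hide unlike changes: 8 of the 9 had a negative log2 fold change, with a median of -0.23. At the edgeR threshold given below, 3 were called lower (*kdrl*, *pecam1* and *egfl7*) and 1 higher (*flt1*). Over all genes tested the shares were 4.23% and 4.22%. *pecam1*, *egfl7* and *esama*, and *myh7l* among the cardiomyocyte markers below, were matched through the study's table of differing genes. Counts that include them are no fair comparison with all genes. The libraries were not purely endothelial: 6 matched cardiomyocyte markers summed to 14734 and 4712 CPM in CtrlK against 1307 and 142 CPM in DNK. Each of the 6 was lower in both DNK libraries, as were 28.6% of all genes tested. None of the 6 was called by the main edgeR fit (adjusted p = 0.355 to 0.553), and DESeq2 called 3 lower. Of the 8 alternative fits described below, 1 called *myl7*, *nppa* and *mybpc3* each. *cmlc1*, *actc1a* and *myh7l* were each called in 2, DESeq2 among them. Replicates of a group differed 2.46-fold to 44.8-fold in these markers. The endogenous *smarca4* genes do not check the transgene, which is of Xenopus origin. One zebrafish gene carrying the SMARCA4 symbol (ENSDARG00000077226) had 621 and 756 counts in CtrlK and 1153 and 798 counts in DNK, and the other (ENSDARG00000104339) had 5, 6, 29 and 11 counts.

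**Figure D1:**
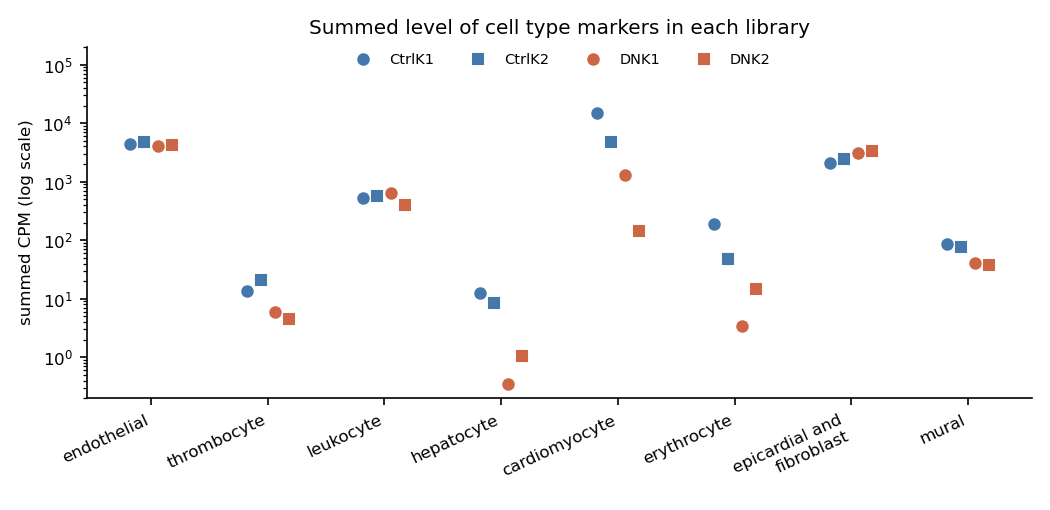
Summed CPM of 8 lists of cell type markers in each library, on a log scale, with circles for replicate 1 and squares for replicate 2 of CtrlK (blue) and DNK (orange). The endothelial sums lie between 4151 and 4849 CPM in the 4 libraries, while the cardiomyocyte sums range from 142 to 14734 CPM.

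Of the 9 genes, the platelet tether *vwf* and the clotting inhibitor *tfpia* were higher in the sorted DNK cells, by 1.70-fold and 3.73-fold. No member was called lower, and the other 7 did not pass the test (edgeR quasi-likelihood test, Benjamini-Hochberg adjusted p under 0.05 over 17151 genes). At an unadjusted p under 0.05, 4 members were higher and 1 was lower, and DESeq2 called 3 higher and 1 lower at an adjusted p under 0.05. Over all genes tested, edgeR called 4.22% higher and 4.23% lower, and DESeq2 called 7.41% higher and 8.35% lower, all at an adjusted p under 0.05. The share of all genes at an unadjusted p under 0.05 was not taken, so the member counts at that threshold have no background here. In 5 members the DNK values both exceeded the CtrlK values, and in 1 both were smaller, against 26.9% and 28.6% of all genes tested. The median log2 fold change was 0.23 over the 9 members and -0.02 over all genes. Since *tfpia* was matched through the study's table of differing genes, the member counts and median are no fair comparison with all genes. The p-values measure only the spread between these libraries. Of 9 epicardial and fibroblast markers, 3 rose as well: *pdgfra* 2.52-fold, *col1a1a* 1.73-fold and *col1a2* 1.63-fold (edgeR adjusted p = 0.000727, 0.00135 and 0.00316). The list summed to 2108 and 2440 CPM in CtrlK and 3132 and 3326 CPM in DNK. Its other 6 markers were not called by edgeR, with *dcn* and *tcf21* among 4 that were lower in both DNK libraries. DESeq2 called 3 of the list higher and 2 lower, *tbx18* and *postnb* (adjusted p = 0.0063 and 0.00495). *postnb* had 818 and 18 counts in CtrlK and 1 and 0 in DNK. *col1a2*, *pdgfra*, *tbx18* and *postnb* were also matched through the study's table of differing genes. The part of epicardial cells and fibroblasts in the member values was not tested.

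**Figure D2:**
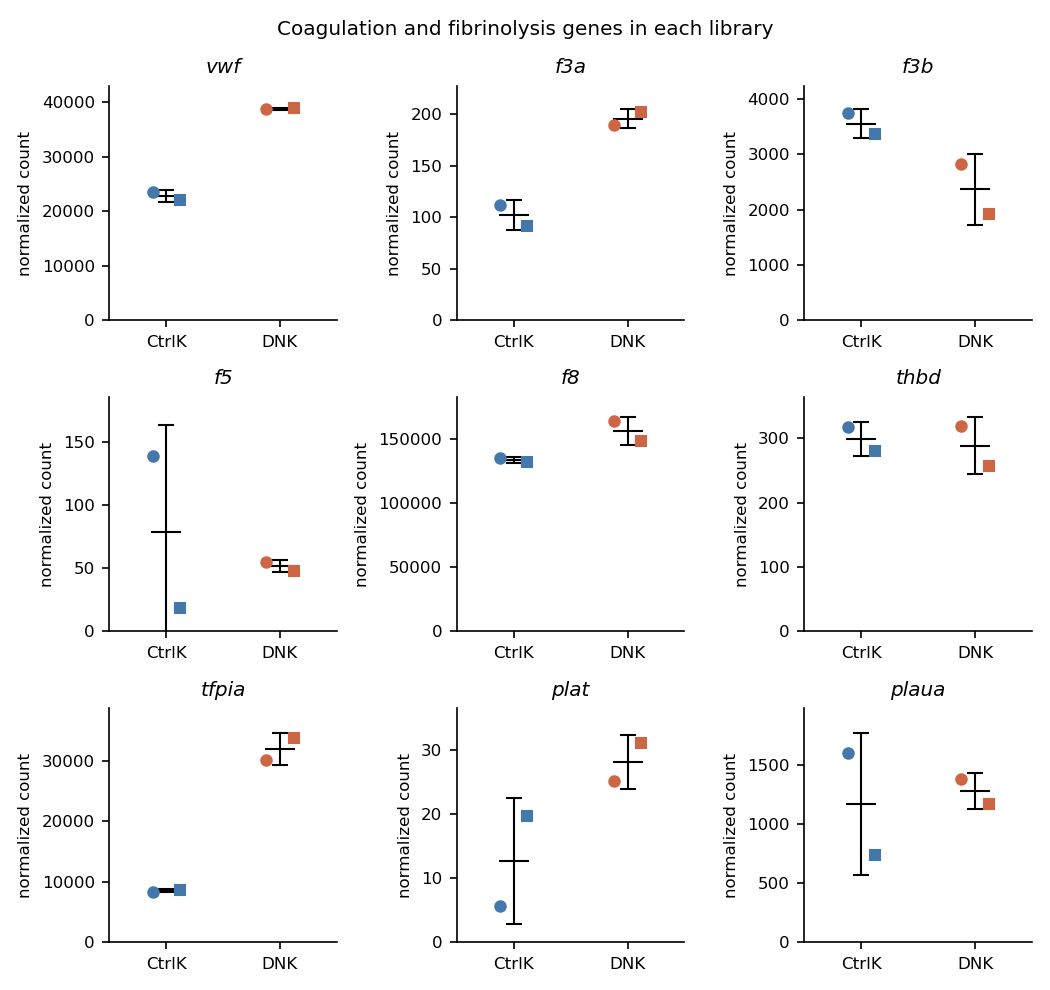
Normalized counts of the 9 genes in each library, with circles for replicate 1 and squares for replicate 2, and with horizontal bars and whiskers for the mean and SD of each group (n = 2). For *vwf* and *tfpia* the groups lie apart by many times the spread within them, while for *f5* the CtrlK libraries spread over the whole range of DNK and the lower whisker ends at the axis.

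*vwf* (ENSDARG00000077231), the gene of the large adhesive glycoprotein stored in the Weibel-Palade bodies of endothelial cells, had 20581 and 23585 counts in CtrlK and 41490 and 38712 counts in DNK. Both DNK libraries were well above both CtrlK libraries. After scaling for library size CtrlK stood at 22854 ± 1052 and DNK at 38820 ± 155 normalized counts (SD, n = 2 each), a log2 fold change of 0.76 with a standard error (SE) of 0.07 and an edgeR adjusted p of 0.0011. Leaving out each library in turn gave log2 fold changes of 0.72 to 0.81. Thrombocytes also make VWF, and their part in these values was not tested. The 6 matched thrombocyte markers of 10 summed to 13.6 and 20.6 CPM in CtrlK and to 5.93 and 4.55 CPM in DNK, with *itga2b*, the thrombocyte integrin gene, at 37 and 172 counts in CtrlK and 0 in both DNK libraries. Of 4 tested markers 3 were called lower by edgeR, against 4.23% of all genes tested, though *gp1bb* was matched through the study's table of differing genes. The fourth, *nfe2*, overlapped between groups (145 and 73 counts in CtrlK, 117 and 82 in DNK), and the untested *gp9* had 1 and 0 counts in CtrlK and 1 and 9 in DNK.

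The zebrafish genome holds a pair of tissue factor genes, and neither passed the test. *f3a* (ENSDARG00000099124), the minor of the pair by reads, had 98 counts in each CtrlK library and 203 and 201 counts in DNK. The groups did not overlap, at 102 ± 14.5 and 196 ± 9.0 normalized counts (SD, n = 2 each), but the log2 fold change of 0.94 (SE 0.36) did not pass the test (edgeR adjusted p = 0.17). *f3b* (ENSDARG00000005673) had 3257 and 3586 counts in CtrlK and 3015 and 1904 counts in DNK. Here DNK lay below CtrlK, at 2364 ± 635 against 3548 ± 264 normalized counts, and the DNK libraries stood apart from each other. The log2 fold change of -0.59 (SE 0.19) was not called by edgeR (adjusted p = 0.106) and was called by DESeq2 (adjusted p = 0.0237). Without the first DNK library it was -0.89 and was called (edgeR adjusted p = 0.0255).

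*f8* (ENSDARG00000101385), the gene of the cofactor that speeds activation of factor X, had more counts than any other member, with 117893 and 140687 in CtrlK and 175839 and 147391 in DNK. As CPM these were 4680, 4890, 6241 and 5538, so the groups did not overlap but lay close together. The log2 fold change of 0.23 (SE 0.06) did not pass the test in edgeR (adjusted p = 0.0694) and passed it in DESeq2 (adjusted p = 0.0325), and in edgeR without the second DNK library (0.30, adjusted p = 0.0464). *f5* (ENSDARG00000055705), the gene of the cofactor of factor Xa, had 121 and 20 counts in CtrlK and 59 and 48 counts in DNK. The CtrlK libraries differed 7.40-fold from each other after scaling and enclosed both DNK values. Its log2 fold change of -0.60 (SE 0.90, edgeR adjusted p = 0.758) became 1.46 without the first CtrlK library, so that its direction rested on that library.

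*tfpia* (ENSDARG00000034718), the gene of tissue factor pathway inhibitor, showed the largest log2 fold change among the 9 members. It had 7316 and 9295 counts in CtrlK and 32222 and 33582 counts in DNK. Every DNK value was more than 3 times every CtrlK value, and the normalized levels were 8551 ± 230 and 31917 ± 2621 (SD, n = 2 each). The log2 fold change was 1.90 (SE 0.08, edgeR adjusted p = 7.88e-05) and lay between 1.81 and 1.98 when each library was left out. By log2 fold change *tfpia* ranked 215 of the 723 genes called higher in DNK.

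*thbd* (ENSDARG00000092470), the gene of thrombomodulin, had 277 and 299 counts in CtrlK and 343 and 256 counts in DNK. The DNK libraries lay on either side of the CtrlK libraries in raw counts, and the groups overlapped after scaling, at 299 ± 26.4 and 289 ± 44.3 normalized counts. The log2 fold change was -0.05 (SE 0.27, edgeR adjusted p = 0.945). A span of 2 SE on either side of it runs from -0.59 to 0.50, so changes within that range were not excluded.

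Neither plasminogen activator gene passed the test. *plaua* (ENSDARG00000075265) had 1394 and 793 counts in CtrlK and 1486 and 1165 counts in DNK. The groups overlapped, since the CtrlK libraries alone spanned the range of both DNK libraries after scaling, and the log2 fold change was 0.13 (SE 0.37, edgeR adjusted p = 0.889). *plat* (ENSDARG00000062707) had the fewest counts of the set, with 5 and 21 in CtrlK and 27 and 31 in DNK. The groups did not overlap, but the CtrlK libraries differed 3.43-fold from each other. The log2 fold change of 1.13 (SE 1.05, edgeR adjusted p = 0.585) could not be separated from that spread.

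Ratios of raw counts within a library do not depend on how libraries are scaled and show how the members moved against each other. With 2 libraries a group an exact permutation test cannot give a p below 0.333, so these are given as values without a test. *tfpia* counts per *f3b* count, the inhibitor against its target, were 2.25 and 2.59 in CtrlK and 10.7 and 17.6 in DNK. The ratio was higher in both DNK libraries, with a log2 difference of 2.51. That follows from the higher *tfpia* and lower *f3b* values already given and is no separate result. Against the other tissue factor gene, *tfpia* per *f3a* was 74.7 and 94.8 in CtrlK and 159 and 167 in DNK. Its log2 difference of 0.95 is smaller than the 1.90 of *tfpia* alone. *f3a* per *f3b* was 0.0301 and 0.0273 in CtrlK and 0.0673 and 0.106 in DNK, so that *f3b* had the more reads of the pair in every library. *vwf* per *f8*, the carrier against its cargo, was 0.175 and 0.168 in CtrlK and 0.236 and 0.263 in DNK. Since exon lengths were not used, these ratios compare libraries and not the amounts of different transcripts.

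**Figure D3:**
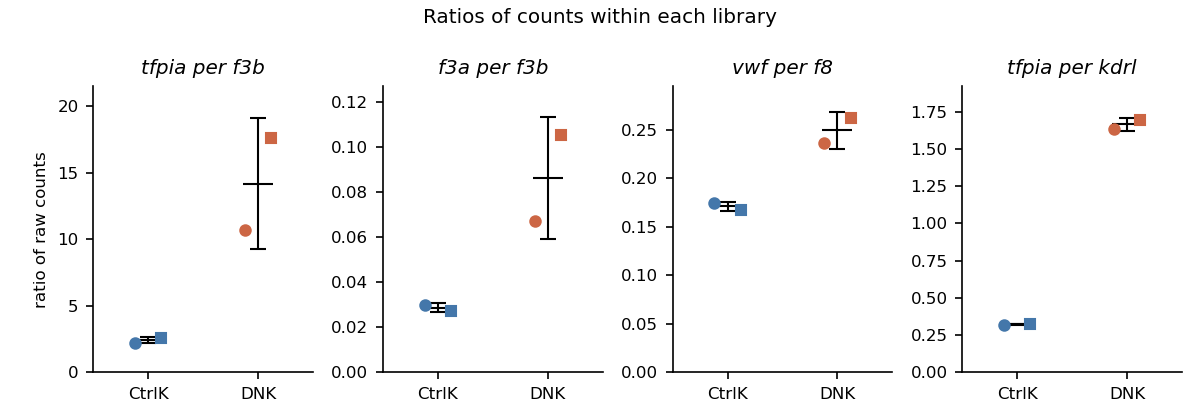
Ratios of raw counts within each library for *tfpia* per *f3b*, *f3a* per *f3b*, *vwf* per *f8* and *tfpia* per *kdrl*, with circles for replicate 1, squares for replicate 2, and bars and whiskers for the mean and SD (n = 2). In all 4 panels the groups lie apart, with DNK higher, with *tfpia* per *f3b* at 2.25 and 2.59 in CtrlK and at 10.7 and 17.6 in DNK.

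*kdrl*, the VEGF receptor gene whose promoter drives the sorting reporter, was itself lower in DNK, with 22782 and 28519 counts in CtrlK and 19725 and 19779 counts in DNK (log2 fold change -0.47, SE 0.07, edgeR adjusted p = 0.0112, and 0.0558 without the second CtrlK library). Set against this endothelial transcript, *tfpia* stood at 0.321 and 0.326 counts per *kdrl* count in CtrlK and at 1.63 and 1.70 in DNK. *vwf* stood at 0.903 and 0.827 in CtrlK and at 2.10 and 1.96 in DNK. Both genes were higher in DNK on this scale too, but with *kdrl* lower this outcome was fixed in advance and is no separate support. *thbd*, with a log2 fold change of -0.05, also lay higher per *kdrl*, at 0.0122 and 0.0105 in CtrlK and 0.0174 and 0.0129 in DNK. The ratios of *f8*, *f3a* and *plat* to *kdrl* were likewise higher in both DNK libraries. *f3b* per *kdrl* was 0.143 and 0.126 in CtrlK and 0.153 and 0.0963 in DNK, so that the lower *f3b* level in DNK was not seen against *kdrl* and the groups overlapped.

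Beyond the 9 members, 60 other symbols of the same pathway were listed by role, also with earlier results of these data known. Of these, 40 were matched to a gene and 24 passed the filter on low counts, of which edgeR called 5 higher and 2 lower and did not call 17, where it called 4.22% higher and 4.23% lower over all genes tested. DESeq2 called 8 higher and 2 lower. The higher calls fell from 5 to 3 without the first CtrlK library, without the first DNK library and without the second DNK library. The median log2 fold change of the 24 was 0.23, against -0.02 over all genes. *f7*, *f10*, *serpine2*, *f2r* and *rab27a* were matched through the study's own gene table. The paper cites that table for genes that differ between DNK and CtrlK, so such a symbol could enter because it differed. The calls and the median of the 24 are therefore no fair comparison with all genes. A further 10 matched genes had no count in any library, among them the fibrinogen genes *fga*, *fgb* and *fgg*, which the liver expresses, *f9a* (factor IX), and *adamts13*, the protease that cleaves VWF. Of 10 matched hepatocyte markers, 4 (*apoa2*, *ambp*, *serpina1* and *serpina1l*) were at 0 in every library and *fabp10a* had 1 count in all. The hepatocyte sum was lower in DNK, at 0.355 and 1.05 CPM against 12.4 and 8.45 CPM, and most of it was *tfa*, with 308 and 240 counts in CtrlK and 1 and 26 in DNK.

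**Figure D4:**
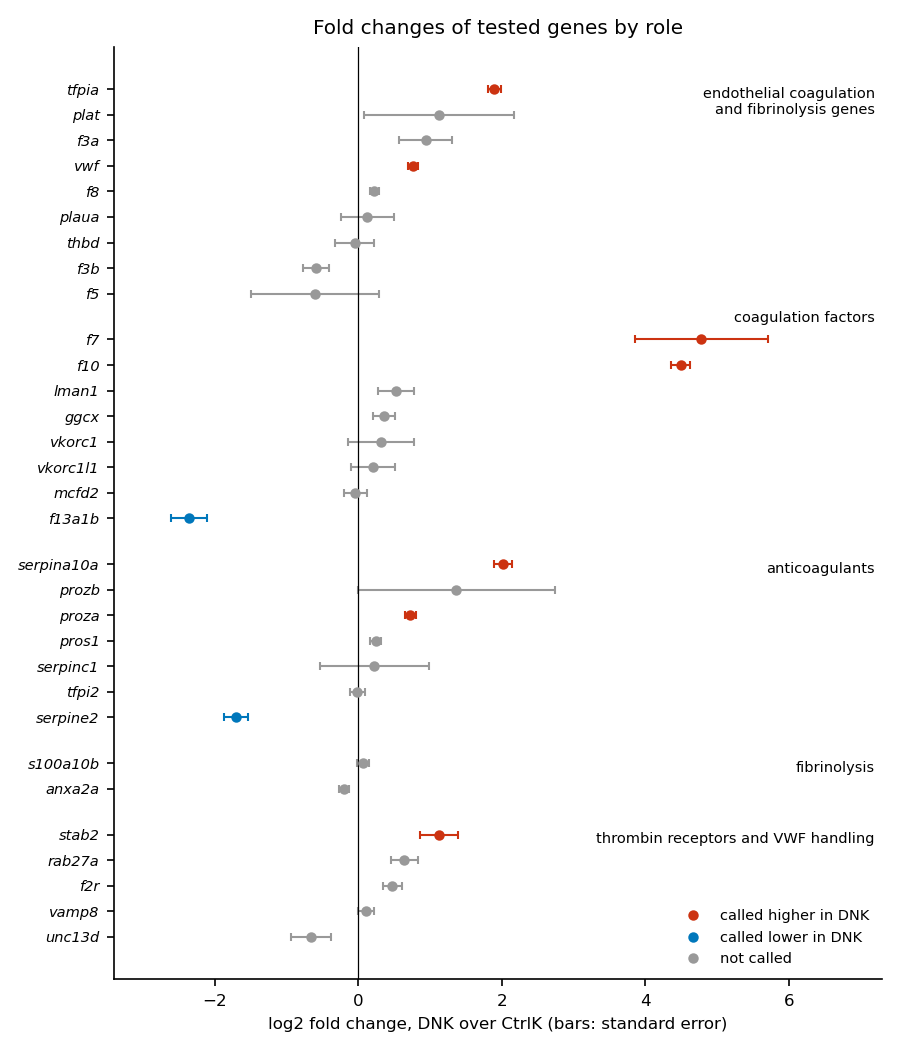
Log2 fold change of DNK over CtrlK for the 9 members and the tested pathway genes reported here, with bars for the SE (edgeR), grouped by role and coloured by the call. *serpina10b*, which had no count in DNK, is left out because its fitted value depends on the prior count. *f10* at 4.49 and *f7* at 4.78 stand highest, and *f13a1b* at -2.35 lowest.

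Among 8 tested coagulation factors and the enzymes and carriers that process them, 2 were called higher and 1 lower. *f10*, the gene of factor X on which the extrinsic and intrinsic arms converge, had 684 and 674 counts in CtrlK and 16731 and 16162 counts in DNK. It rose 22.5-fold (log2 fold change 4.49, SE 0.13, edgeR adjusted p = 1.57e-05), and the values left no overlap between groups. *f7*, the gene of the protease that tissue factor binds, had 1 and 5 counts in CtrlK and 86 and 91 counts in DNK. From 6 against 177 counts in all, its CPM ratio was 29.1 with an exact 95% interval of 13.1 to 80.2 that covers counting error only (edgeR adjusted p = 0.0243), and of the 4 fits that left out a library only the one without the second CtrlK library called it (adjusted p = 0.0428, against 0.0579 to 0.0852 in the others). *f13a1b*, a gene of the fibrin-crosslinking factor XIII A subunit, had 1696 and 2343 counts in CtrlK and 327 and 503 counts in DNK. It was 5.11-fold lower (log2 fold change -2.35, SE 0.25, edgeR adjusted p = 0.0024). In mammals platelets and macrophages make this subunit. The thrombocyte sums were lower in DNK. Of 8 tested leukocyte markers, 6 were lower in both DNK libraries, against 28.6% of all genes tested. By edgeR 4 were called lower, against 4.23%. *coro1a*, *mpeg1.1*, *mpx*, *lcp1* and *spi1b* were matched through the study's table of differing genes, so these counts are no fair comparison with all genes. Of the other tested markers, *ptprc* was called lower, *marco* was higher in both DNK libraries and *csf1ra* overlapped. The leukocyte sums overlapped between groups, at 522 and 565 CPM in CtrlK and 630 and 406 CPM in DNK. Without the macrophage receptor gene *marco*, left out after its values were seen (136 and 153 CPM in CtrlK, 394 and 189 CPM in DNK), they were 386 and 413 CPM in CtrlK and 236 and 217 CPM in DNK. Since *marco* was the 1 tested marker higher in both DNK libraries, the sums without it are no separate result. The part of thrombocytes or leukocytes in the *f13a1b* values was not tested. Of the factors not called, *mcfd2*, which helps export factors V and VIII from the endoplasmic reticulum, had 1254 and 1293 counts in CtrlK and 1270 and 1383 in DNK. *ggcx*, the vitamin K-dependent carboxylase, had 937 and 1016 counts in CtrlK and 1318 and 1368 in DNK (log2 fold change 0.36, SE 0.15, edgeR adjusted p = 0.205).

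Of 8 tested anticoagulant genes, 2 were called higher and 1 lower. *serpina10a*, a gene of the protein Z-dependent inhibitor of factor Xa, had 975 and 1224 counts in CtrlK and 5241 and 4265 counts in DNK, a 4.05-fold rise (log2 fold change 2.02, SE 0.12, edgeR adjusted p = 0.00025). *proza*, a gene of protein Z, the cofactor of that inhibitor, had 6577 and 8076 counts in CtrlK and 13235 and 12542 counts in DNK (log2 fold change 0.72, SE 0.08, edgeR adjusted p = 0.00242). *serpina10a* and *proza* were thus both higher in both DNK libraries than in CtrlK, as were 26.9% of all genes tested. *serpine2*, the gene of the thrombin inhibitor protease nexin-1, fell, from 3092 and 3245 counts in CtrlK to 943 and 1136 counts in DNK (log2 fold change -1.70, SE 0.17, edgeR adjusted p = 0.0016). *pros1*, the gene of protein S, had 14321 and 18040 counts in CtrlK and 20274 and 20418 in DNK, and its log2 fold change of 0.24 (SE 0.08) was called by DESeq2 (adjusted p = 0.0308) and not by edgeR (adjusted p = 0.102). *tfpi2*, which encodes a second Kunitz-type inhibitor related to *tfpia*, had 6010 and 7118 counts in CtrlK and 7773 and 6151 in DNK, a log2 fold change of -0.01 (SE 0.10, edgeR adjusted p = 0.963) beside the 1.90 of *tfpia*. *serpina10b*, by name the other gene of the protein Z-dependent inhibitor, went the other way from *serpina10a*. It had 10 and 11 counts in CtrlK and none in DNK, at least 3.56-fold lower against a floor of 3 counts per library. It was not called (edgeR adjusted p = 0.138).

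Among 3 tested genes of fibrinolysis, none was called in either direction by edgeR or by DESeq2. At an unadjusted p under 0.05 edgeR gave 1, *anxa2a*, the gene of annexin A2, which was named after its values were seen and had a log2 fold change of -0.19 (SE 0.07, adjusted p = 0.135). *s100a10b*, a gene of the annexin A2 partner that binds plasminogen in mammals, had 35150 and 49210 counts in CtrlK and 45979 and 47275 in DNK (log2 fold change 0.07, SE 0.09, edgeR adjusted p = 0.722). Plasminogen itself (*plg*) had 6 and 13 counts in CtrlK and none in DNK and did not pass the filter.

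Of 5 tested genes for thrombin receptors and the storage and clearance of VWF, 1 was called higher. *stab2*, the gene of a scavenger receptor that clears VWF and factor VIII in mammals, had 196 and 189 counts in CtrlK and 496 and 412 counts in DNK (log2 fold change 1.13, SE 0.27, edgeR adjusted p = 0.0472). The groups lay apart, but none of the 4 fits that left out a library called it (adjusted p = 0.0978 to 0.180). *f2r*, the gene of the thrombin receptor PAR1, had 1284 and 1834 counts in CtrlK and 2382 and 2211 counts in DNK. DNK was above CtrlK in both libraries, with a log2 fold change of 0.48 (SE 0.13) that DESeq2 called (adjusted p = 0.0176) and edgeR did not (adjusted p = 0.0723). *vamp8*, a SNARE gene of secretory granule release, had 2393 and 2733 counts in CtrlK and 2943 and 2958 in DNK (log2 fold change 0.11, SE 0.12, edgeR adjusted p = 0.639). *rab27a*, the small GTPase of Weibel-Palade body maturation, was named after its values were seen, with a log2 fold change of 0.65 (SE 0.19) that DESeq2 called (adjusted p = 0.0339) and edgeR did not (adjusted p = 0.0821). The remaining tested gene of this list, *unc13d*, also named after its values were seen, went the other way. It had 258 and 364 counts in CtrlK and 215 and 202 in DNK (log2 fold change -0.66, SE 0.28, edgeR adjusted p = 0.205).

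The genes that lie beside *tfpia*, *vwf*, *f8* and the called pathway genes *f7*, *f10*, *proza* and *serpina10a* were also read out. The gene order was that of the RefSeq assembly GRCz12tu, taking the 5 nearest protein-coding genes on each side. These places were chosen after values were seen, and those around the called genes *f13a1b*, *serpine2* and *stab2* were not read out. Of the 10 neighbours of *tfpia*, 5 were tested and 3 were called higher, where edgeR called 4.22% higher over all genes tested. Neighbours were also looked up in the study's table of differing genes, so a neighbour could be matched because it differed. Others, such as *ttn.1* and *ttn.2*, had no match. The 3 calls are therefore no fair comparison with that share. *gulp1a*, the next gene on one side, an adaptor gene for the uptake of apoptotic cells, had 492 and 513 counts in CtrlK and 1451 and 1832 counts in DNK (log2 fold change 1.61, SE 0.20, edgeR adjusted p = 0.00433). *calcrla*, the next gene on the other side, for a receptor of the calcitonin and adrenomedullin family, had 175 and 435 counts in CtrlK and 1021 and 1047 counts in DNK (log2 fold change 1.72, SE 0.33, edgeR adjusted p = 0.0247). Both flanking genes were thus higher in both DNK libraries, as was *tfpia* between them. *gulp1a* was called in all 4 fits that left out a library, and *calcrla* in 2, not without the first (edgeR adjusted p = 0.0861) or the second DNK library (edgeR adjusted p = 0.125). *col5a2a*, a fibrillar collagen gene further out, rose less (log2 fold change 0.43, SE 0.09, edgeR adjusted p = 0.0327) and was called in 1 of those 4 fits, the one without the first DNK library (edgeR adjusted p = 0.0453, and at most 0.149 in the others), while *fkbp7* beyond it had a log2 fold change of 0.11 (edgeR adjusted p = 0.692).

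*f7* and *f10* lie close together in the same order, 2 genes apart. Of the other tested genes around *f10*, the protein Z gene *prozb* had 1 and 10 counts in CtrlK and 16 and 13 in DNK and was not called. *pcid2* and *cul4a*, next beyond it, had log2 fold changes of -0.26 (edgeR adjusted p = 0.428) and 0.27 (edgeR adjusted p = 0.335). Around *vwf*, 4 neighbours were tested, and 0 were called by edgeR, 0 by DESeq2 and 0 at an unadjusted p under 0.05 in edgeR. Around *f8*, 6 were tested, of which edgeR called 1, which was lower (*hopx*, log2 fold change -2.13, SE 0.13, adjusted p = 0.000267). The 1 tested neighbour of *proza* and the 2 of *serpina10a* were not called by edgeR (adjusted p = 0.924, 0.885 and 0.146). The strand setting of the read counting is not given in the sources used here, so reads of overlapping genes on opposite strands could not be told apart.

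**Figure D5:**
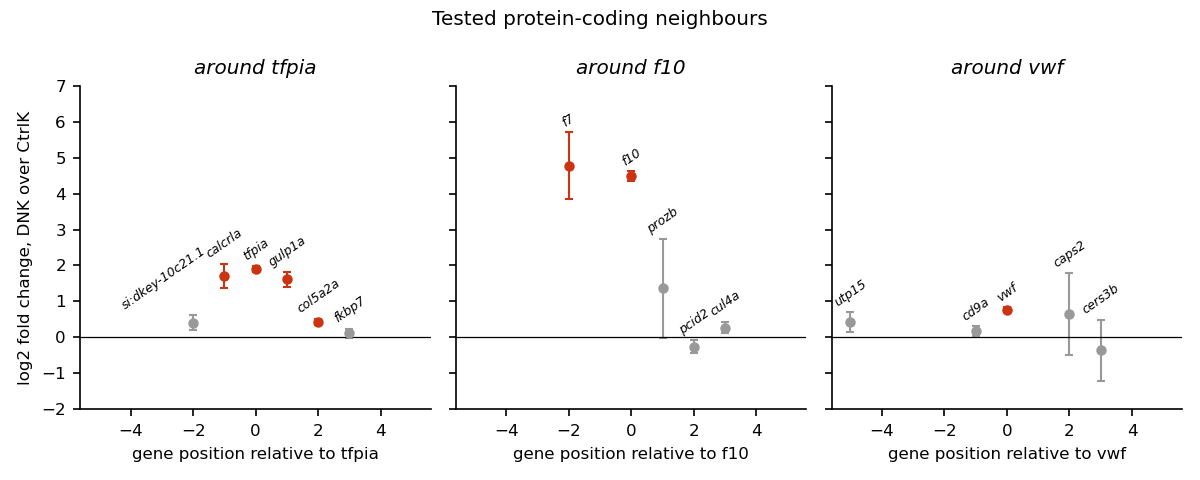
Log2 fold change of DNK over CtrlK, with SE bars (edgeR), for *tfpia*, *f10*, *vwf* and their tested protein-coding neighbours, placed by gene order in GRCz12tu, with called genes in red and others in grey. *calcrla* (1.72) and *gulp1a* (1.61) flank *tfpia* (1.90), *f7* (4.78) lies 2 genes from *f10* (4.49), and no tested neighbour of *vwf* was called.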

How the data were processed

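RNA-seq was measured in 2 CtrlK and 2 DNK libraries of sorted cardiac endothelial cells. The authors deposited raw counts per Ensembl gene for each library: reads were checked with FastQC (0.11.9), aligned to GRCz11 with HISAT2 (2.2.1), and uniquely mapped reads were counted with featureCounts (2.0.1). No value column was left unmatched. The deposited counts were tested with edgeR (4.0.16) in R (4.3.3): filterByExpr kept 17151 genes, TMM scaled the libraries, and a robust quasi-likelihood fit compared DNK with CtrlK, with Benjamini-Hochberg adjusted p under 0.05 as the call. DESeq2 (1.42.0), which the study used, was an alternative. Other alternatives changed the scaling, the filter (none, or at least 10 counts in every library), the dispersion, the replicate block and the libraries included. The fitting script was tested on simulated data. For normalized counts, each count was divided by its library's effective (TMM) size and brought back to the scale of an average library, and SE is the log2 fold change divided by the square root of F. Intervals and floors (3 counts) cover counting error only. Gene symbols came from the study's gene table and a gene name table, and a symbol that pointed to several genes was left unmatched. The paper cites its table for genes that differ between DNK and CtrlK. Counts over lists matched partly through it are therefore no fair comparison with all genes.

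The named genes were all members, every called pathway gene and, in each list, the 2 genes with the most counts that were not called, with *kdrl* and *smarca4a* as label checks. Of the genes so named, 1 is not reported here, though it is counted in its list. No ranking by likeness of pattern was made, because 4 libraries in 2 groups give no independent points. Members and lists were chosen with earlier results of these data known. The study describes the replicates of each group as biological replicates, and cells were sorted from pooled hearts. The deposited tables name the DNK libraries differently from their labels, and the labels were followed. Sequences and exon lengths were not used here, so levels were not compared between genes.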

Additional observations from a re-analysis of the deposited data

How the results depend on the processing

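Under all 8 alternatives and in the 4 fits that each left out 1 library, *vwf* and *tfpia* were called higher. DESeq2 called 1271 genes higher and 1432 lower, with 8 pathway genes higher and 1 member lower (*f3b*). Without a filter (24155 genes) 1315 genes were higher and 1775 lower, again with 1 member lower. The replicate block called 3 members higher and 1 lower, adding *f8* (adjusted p = 0.0317) and *f3b* (adjusted p = 0.0369), both by edgeR. The labels do not say whether same-numbered libraries were prepared together. Over all genes tested such libraries deviated together with a correlation of 0.09, which cannot decide this. With at least 10 counts in every library *f8* was called (edgeR adjusted p = 0.0342). Each of these moved calls across the threshold, and the cause was not tested.

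Leaving out 1 library in turn gave 354 to 425 genes higher, 328 to 567 lower, 0 to 1 members lower and 3 to 4 pathway genes higher. These fits left 1 group with a single library, assumed to vary like the other group. Directions turned in 3 members that were not called: *thbd* was 0.027 with total counts only and ranged from -0.21 to 0.10 without 1 library, *f5* from -1.42 to 1.46 and *plaua* from -0.32 to 0.78. Of the pathway genes, *stab2* was not called with a non-robust dispersion (edgeR adjusted p = 0.0543). Other scalings moved the median over all genes by at most 0.07 (log2). At these depths *plat*, *f5* and *f7* rested on few counts.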
